A study of Rattus norvegicus with 484 samples.

Results

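The mitochondrial carriers of the Slc25 family and the machinery that imports proteins into mitochondria were followed across rat tissues and PPAR ligands. Members were the genes whose array symbol starts with Slc25a (25 carriers) or with Timm or Tomm (19 import genes). Together they were 44 of the 10210 named genes on the array, read by 61 probes. The probes of a gene were averaged, and 15 members had more than 1 probe.

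Most Slc25 carriers sit in the inner mitochondrial membrane and exchange metabolites, nucleotides, cofactors and ions between the cytosol and the matrix. Most mitochondrial proteins are made in the cytosol: the TOM complex passes them through the outer membrane, and small TIM chaperones escort carriers across the intermembrane space to the TIM22 complex, while matrix proteins go through the TIM23 complex. PPARA is a nuclear receptor that is activated by fatty acids and fibrates and drives fatty acid oxidation in liver. Carnitine exchange by Slc25a20 is a step of that pathway, since it brings acylcarnitines into the matrix.

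The study treated rats with fenofibrate (400 mkd, the dose unit of the labels), bezafibrate (250 mkd) or Wy-14643 (100 mkd), which are PPARA agonists, with the PPARG agonist rosiglitazone (100 mkd), with retinoic acid (25 mkd), or with vehicle. Soleus, quad (as the labels call it) and liver were taken on days 2 to 6. Each array compared 1 rat (Cy5) with a pool of 10 to 16 vehicle rats of its tissue and day (Cy3), and there were 484 arrays. A 4th tissue, labelled EDL, had lower doses (fenofibrate 50, bezafibrate 25, Wy-14643 10, rosiglitazone 10 and, on day 4, also 100, and retinoic acid 2.5 mkd) and no arrays of single vehicle rats. Strain, sex and age of the rats are not given in the sources used here. Soleus had 19 arrays of fenofibrate rats, 20 of bezafibrate, 18 of Wy-14643, 20 of rosiglitazone and 20 of retinoic acid rats, and 35 of vehicle rats. Quad had 17 of fenofibrate, 20 of bezafibrate, 16 of Wy-14643, 16 of rosiglitazone, 18 of retinoic acid and 63 of vehicle. Fenofibrate rat 1157, with a quad spread 7.6 times the tissue's median, was left out by the rule that set the gene group. Liver had 14 of fenofibrate, 15 of each other compound and 73 of vehicle. EDL had 9 of fenofibrate, 9 of bezafibrate, 12 of Wy-14643, 9 of rosiglitazone at 10 mkd and 4 at 100 mkd, and 11 of retinoic acid.

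Values are log2 differences, compound minus the vehicle arrays of the same tissue and day with the days weighted equally, given with their standard error (SE). A gene was called when its adjusted p from limma, over all features tested, was under 0.05. Ratios carry no absolute level, so members cannot be ranked by abundance. In whole tissue, fewer cells of a type and less RNA per cell cannot be told apart. The means of the vehicle rats lay close to their pools: member means were between -0.12 and 0.03 in liver, -0.10 and 0.06 in quad and -0.18 and 0.14 in soleus. Single vehicle rats spread more widely. The median SD over members was 0.16 in liver, 0.19 in quad and 0.36 in soleus, where Tomm20 went down to -3.58. A rule on spread and on other-tissue markers put 9 arrays in doubt: vehicle rats 1022, 1034 and 1061 in soleus, bezafibrate rat 1256, retinoic acid rat 1321, fenofibrate rat 1157 and vehicle rats 1042 and 1068 in quad, and rosiglitazone rat 1376 in liver. Soleus vehicle rat 1022 had a spread 12.3 times the tissue's median, and soleus vehicle rat 1034 had hepatocyte markers 4.16 log2 units above the other arrays of its day.

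Against single vehicle rats, more members were called in liver than in soleus or quad, and so were more features. With fenofibrate, 10 of 24 carriers and 15 of 19 import genes were called in liver, where 37.0% of all features were. With Wy-14643 the counts were 16 of 24 carriers and 14 of 19 import genes, beside 40.2% of features. Bezafibrate gave 8 of 24 and 7 of 19, beside 21.3%. Rosiglitazone gave 6 of 24 and 8 of 19, beside 22.7%, and retinoic acid gave 9 of 24 and 4 of 19, beside 29.2%. The import genes' shares lay above that of all features for each compound but retinoic acid. The carriers' share lay clearly above it with Wy-14643. With fenofibrate (10 of 24 beside 37.0%) and rosiglitazone (6 of 24 beside 22.7%) the carriers' share was close to that of all features. All features include 8376 probes without a gene. These shares were compared as a description, with no test. Without rosiglitazone rat 1376 the rosiglitazone count was 11 in place of 14, with Slc25a28, Slc25a1, Timm17a and Timm8a1 no longer called, and without day 5 it was 9.

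**Figure D1:**
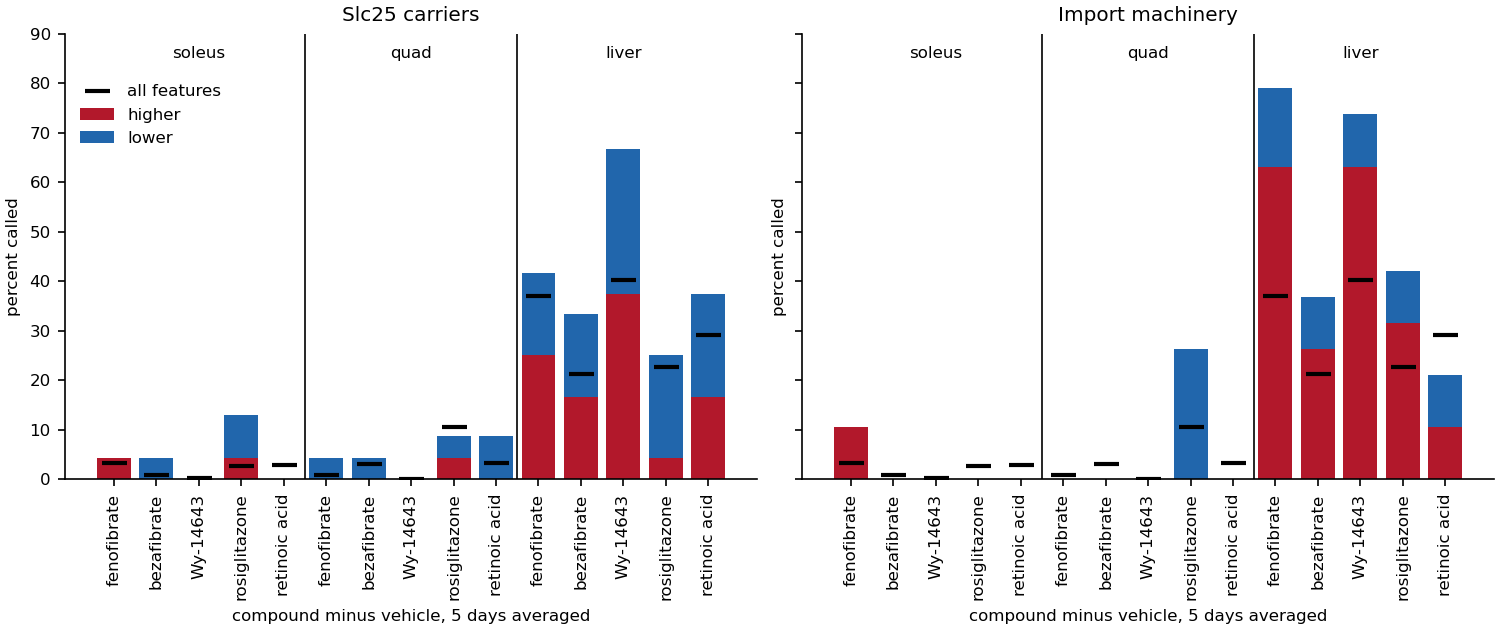
Percent of carriers (left) and import genes (right) called higher (red) or lower (blue) for each compound minus vehicle in soleus, quad and liver; the black dash is the percent called among all features of that comparison. Import genes in liver with fenofibrate and Wy-14643 are mostly higher and stand above the dash (15 and 14 of 19), while both muscles have few calls.

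Carriers and import genes are given by direction, with no test between the classes. In liver, 12 import genes were higher and 3 lower with fenofibrate, with a median of 0.16 over the 19, and 12 were higher and 2 lower with Wy-14643, with a median of 0.15. The carriers split, with 6 higher and 4 lower for fenofibrate and 9 higher and 7 lower for Wy-14643, and medians of 0.02 and -0.03. Bezafibrate had 5 import genes higher and 2 lower, and 4 carriers higher and 4 lower. Rosiglitazone had 6 import genes higher and 2 lower, and 1 carrier higher and 5 lower, while retinoic acid had 2 and 2 import genes and 4 and 5 carriers higher and lower. The medians over all features were 0.00 with fenofibrate and -0.01 with Wy-14643.

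**Figure D2:**
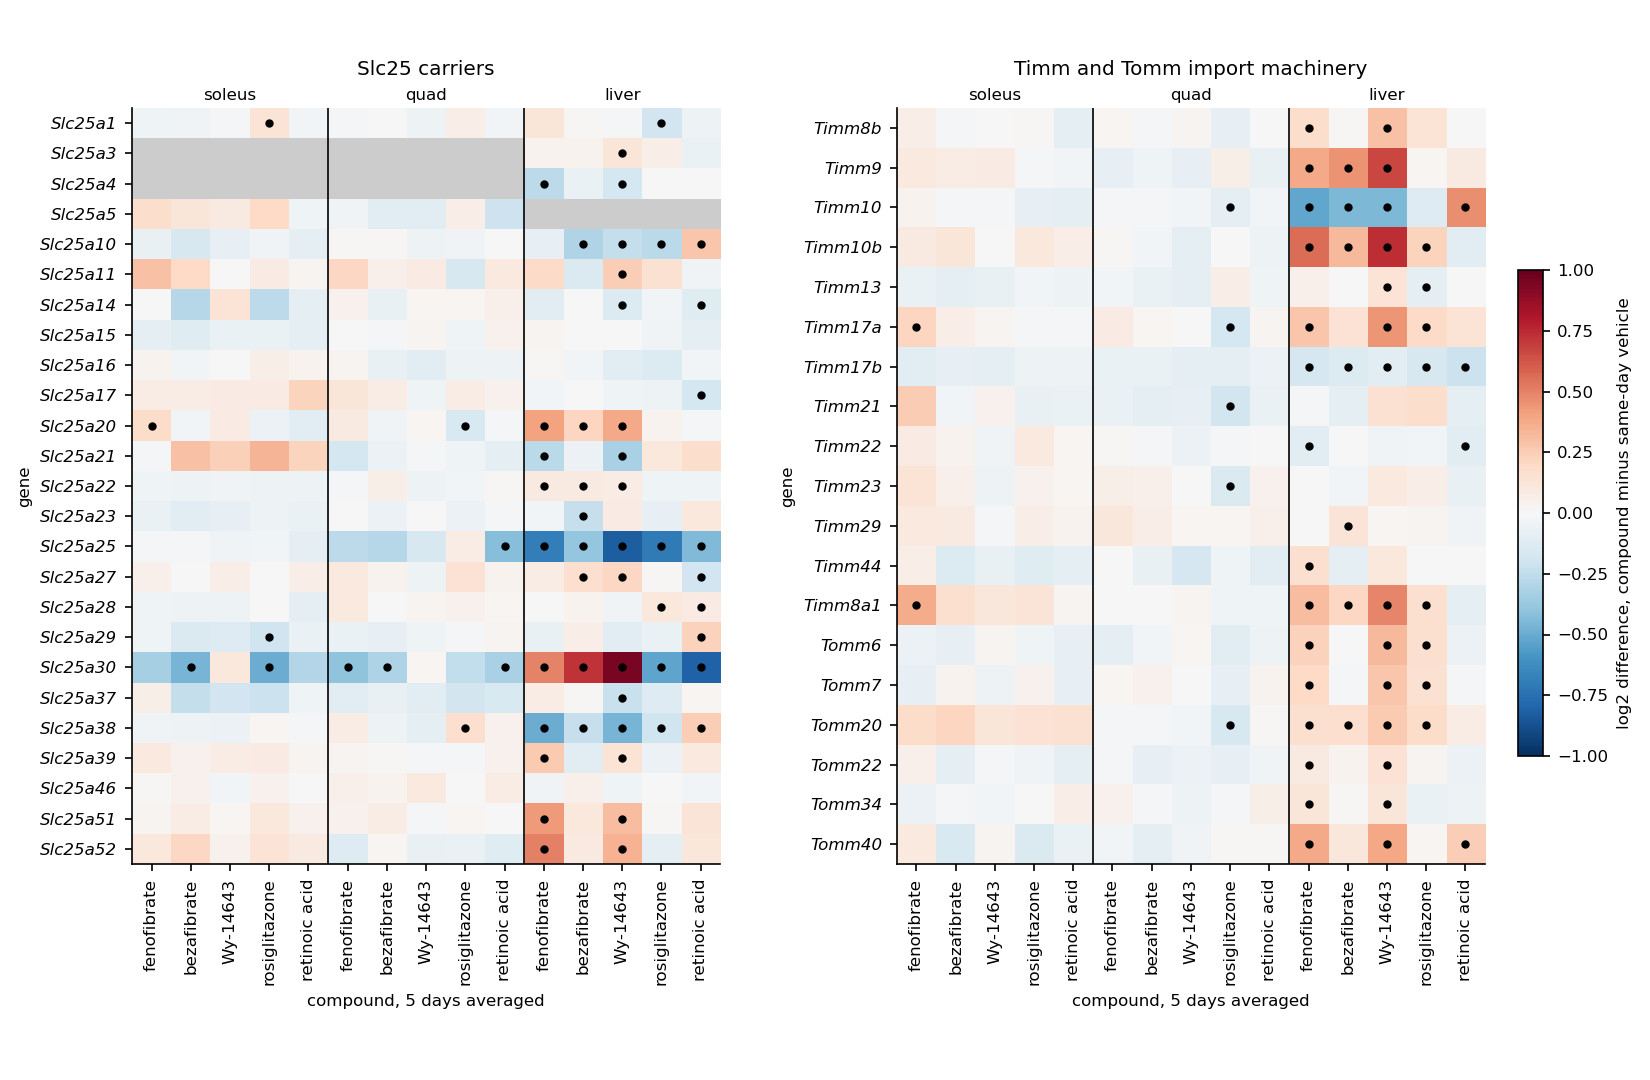
Log2 difference of each compound minus same-day vehicle, averaged over days, for every carrier (left) and import gene (right) in soleus, quad and liver; a black dot marks an adjusted p under 0.05 and grey marks genes with too few values to test. Strong colours are seen in the liver columns of Slc25a25, Slc25a30 and Slc25a38 and of Timm9, Timm10 and Timm10b, among others.

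The promoters of a carrier and 3 import genes, from among the members called higher in liver with both fenofibrate and Wy-14643, are shown. They are RefSeq windows of the rat build GRCr8, from 250 bases before to 50 bases after the start of the gene, and 38 of the 44 members had one. Capitals mark a match to the letters searched. The windows lie at chr8:118243323-118243622 (plus strand) for Slc25a20, chr6:95358846-95359145 (minus strand) for Timm9, chr1:169392105-169392404 (plus strand) for Timm10b and chr1:88498784-88499083 (minus strand) for Tomm40.
Slc25a20: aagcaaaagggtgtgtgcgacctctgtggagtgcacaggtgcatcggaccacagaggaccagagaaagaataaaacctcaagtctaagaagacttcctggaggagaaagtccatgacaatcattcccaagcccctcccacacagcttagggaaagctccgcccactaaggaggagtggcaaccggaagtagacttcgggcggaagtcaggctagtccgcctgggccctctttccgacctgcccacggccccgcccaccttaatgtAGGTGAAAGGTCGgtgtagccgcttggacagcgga
Timm9: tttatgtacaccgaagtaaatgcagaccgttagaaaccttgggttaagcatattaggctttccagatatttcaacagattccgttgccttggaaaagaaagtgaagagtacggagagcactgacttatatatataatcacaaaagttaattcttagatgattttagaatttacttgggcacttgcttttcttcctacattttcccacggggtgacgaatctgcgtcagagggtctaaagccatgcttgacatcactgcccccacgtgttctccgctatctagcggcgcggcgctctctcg
Timm10b: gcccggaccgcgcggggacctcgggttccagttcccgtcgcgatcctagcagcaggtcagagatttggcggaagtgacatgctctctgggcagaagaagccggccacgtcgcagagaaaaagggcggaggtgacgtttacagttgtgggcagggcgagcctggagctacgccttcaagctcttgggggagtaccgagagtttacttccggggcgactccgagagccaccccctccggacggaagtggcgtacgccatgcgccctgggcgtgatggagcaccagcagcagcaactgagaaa
Tomm40: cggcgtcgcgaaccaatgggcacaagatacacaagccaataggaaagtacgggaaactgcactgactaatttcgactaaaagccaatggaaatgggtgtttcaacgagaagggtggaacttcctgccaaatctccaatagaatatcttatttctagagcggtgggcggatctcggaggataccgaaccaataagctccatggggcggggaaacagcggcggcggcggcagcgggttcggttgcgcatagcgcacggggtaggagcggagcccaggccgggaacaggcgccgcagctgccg
The PPAR element was searched on both strands as AGGTCANAGGTCA, with at most 2 letters differing. It matched in 3.77% of 33469 promoters and in 1 of the 38 members' windows, that of Slc25a20, where AGGTGAAAGGTCG starts 16 bases into the transcript. No member held an exact match, against 0.05% of all promoters. The NRF1 motif GCGCANGCGC matched exactly in 4.25% of promoters and in 4 members, Tomm7, Tomm20, Timm21 and Slc25a51. These matches describe the windows only.

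Slc25a20, the carnitine and acylcarnitine carrier, was higher in liver with each PPARA agonist. Single fenofibrate livers ranged from 0.20 to 0.73 with a median of 0.43, bezafibrate livers from 0.08 to 0.49 with a median of 0.21, and Wy-14643 livers from 0.19 to 0.70 with a median of 0.31, against -0.44 to 0.36 with a median of -0.02 in vehicle livers. All 44 agonist-treated livers lay above their same-day vehicle mean, but the ranges overlapped, and 16 of them exceeded the highest vehicle array. The differences were 0.41 ± 0.04 (SE, n = 14, adjusted p = 1.2e-18) for fenofibrate, 0.22 ± 0.03 (n = 15, adjusted p = 2.7e-07) for bezafibrate and 0.38 ± 0.03 (n = 15, adjusted p = 2.4e-18) for Wy-14643. With rosiglitazone and retinoic acid Slc25a20 was not called in liver.

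The gene mean of Slc25a20 hides unequal probes. Probe 10020293910 gave 0.78 ± 0.06 with fenofibrate, 0.45 ± 0.05 with bezafibrate and 0.77 ± 0.05 with Wy-14643 in liver. Probe 10011871857 gave 0.03 ± 0.04, -0.02 ± 0.04 and 0.00 ± 0.04 (fenofibrate, bezafibrate and Wy-14643). The liver call of Slc25a20 rests on 1 of its 2 probes. Over all members with more than 1 probe, the probes pointed in both directions in 76 of 225 pairs of a member and a comparison, and by more than 2 SE each in 3.

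**Figure D3:**
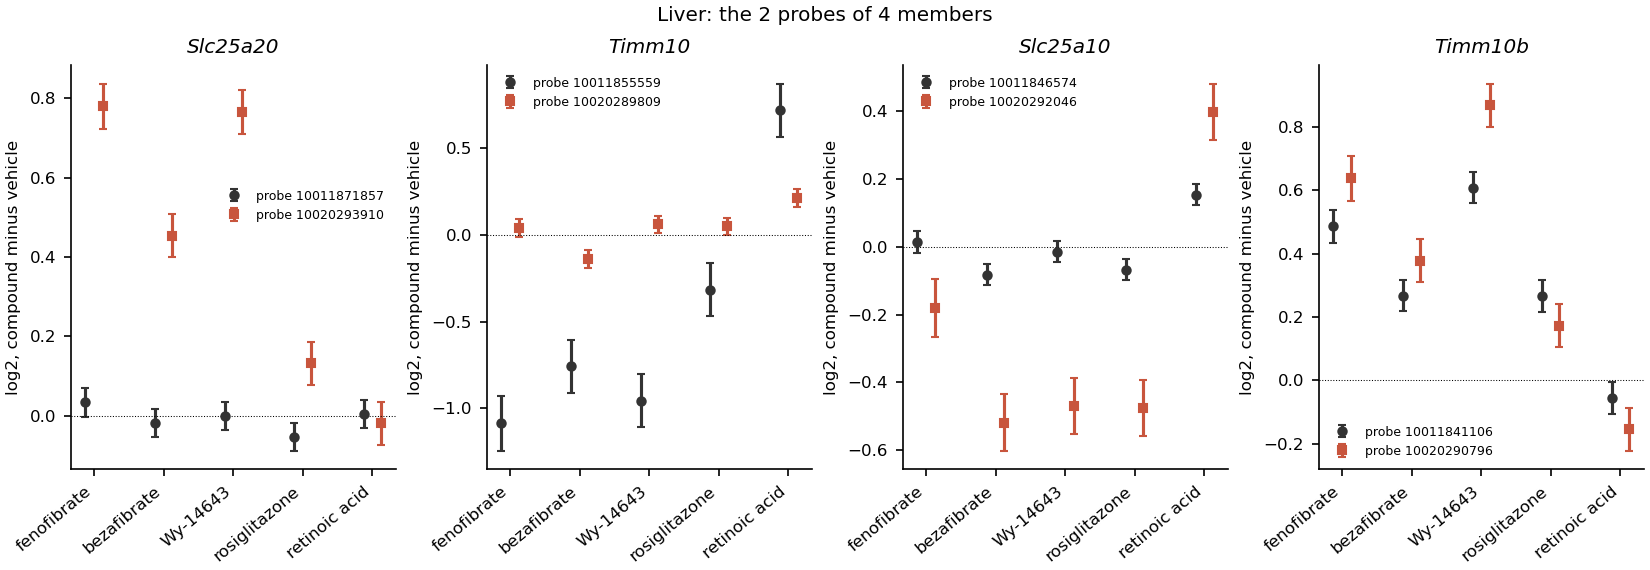
Log2 difference of compound minus vehicle in liver for each of the 2 probes of Slc25a20, Timm10, Slc25a10 and Timm10b; points are estimates and bars are SE. The probes of Timm10b run together, whereas 1 probe of Slc25a20 stays near 0 and the probes of Timm10 and Slc25a10 differ in size.

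Other carriers were higher with the PPARA agonists in liver. Slc25a51 and its near copy Slc25a52, which carry NAD, were higher with fenofibrate by 0.42 ± 0.07 (adjusted p = 6.1e-08) and 0.50 ± 0.09 (adjusted p = 5.8e-07), and whether their probes tell the copies apart was not tested. Single fenofibrate livers held -0.02 to 0.79 for Slc25a51 (median 0.45), against -0.47 to 0.39 (median 0.01) in vehicle livers. Both copies were also called higher with Wy-14643 and neither with bezafibrate. Slc25a22, a glutamate carrier, was called higher with each PPARA agonist by small amounts. Slc25a39 (glutathione) was higher with fenofibrate and Wy-14643. Slc25a11, the oxoglutarate carrier of the malate-aspartate shuttle, was higher with Wy-14643 (0.24 ± 0.08, adjusted p = 0.009), as was the phosphate carrier Slc25a3 (0.12 ± 0.04, adjusted p = 0.024). Slc25a11 did not pass without day 5 (0.23, adjusted p = 0.059) or day 6 (0.22, adjusted p = 0.079). Slc25a3 did not pass without day 3 (0.099, adjusted p = 0.129), without day 6 (0.080, adjusted p = 0.263) or with arrays scaled to one spread (adjusted p = 0.055).

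Slc25a30, a carrier also known as kidney mitochondrial carrier 1, was higher with PPARA agonists and lower with rosiglitazone and retinoic acid in liver. Its single livers had medians of 0.70 with fenofibrate, 1.00 with bezafibrate, 0.99 with Wy-14643, -0.59 with rosiglitazone and -0.98 with retinoic acid, against 0.06 with vehicle, whose arrays ran from -1.43 to 1.15. The spread between vehicle livers was wide, and all of the groups overlapped with them. The differences were 0.50 ± 0.17 (adjusted p = 0.012) for fenofibrate, 0.72 ± 0.16 (adjusted p = 0.00027) for bezafibrate and 0.95 ± 0.16 (adjusted p = 3.4e-07) for Wy-14643. They were -0.53 ± 0.16 (adjusted p = 0.011) for rosiglitazone and -0.81 ± 0.16 (adjusted p = 2.3e-05) for retinoic acid. The rosiglitazone call was lost without day 4 (-0.34, adjusted p = 0.20) and without day 6 (-0.41, adjusted p = 0.101), and the fenofibrate call without day 2 (0.35, adjusted p = 0.154). Both probes of Slc25a30 gave these directions and were called in each comparison.

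Slc25a25, a calcium-regulated ATP-magnesium/phosphate carrier, was lower in liver with all 5 compounds. The single livers ranged from -1.20 to -0.05 with fenofibrate, -1.07 to 0.16 with bezafibrate, -1.33 to -0.34 with Wy-14643, -2.87 to -0.08 with rosiglitazone and -1.12 to 0.15 with retinoic acid, against -0.77 to 0.84 in vehicle livers. No fenofibrate, Wy-14643 or rosiglitazone liver reached its vehicle mean, and every group overlapped the vehicle range. The differences were -0.69 ± 0.10, -0.39 ± 0.10, -0.82 ± 0.10, -0.70 ± 0.10 and -0.44 ± 0.10 in the order just given, with adjusted p = 0.0017 or lower. Without rosiglitazone rat 1376 the rosiglitazone difference was -0.57. The compounds share the same vehicle arrays, so the 5 values are not independent.

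The remaining lower carriers had narrower ranges. Slc25a38, a glycine carrier used in heme synthesis, was lower with fenofibrate (-0.49 ± 0.05, adjusted p = 2.3e-14), bezafibrate (-0.23 ± 0.05, adjusted p = 0.00015), Wy-14643 (-0.46 ± 0.05, adjusted p = 4.4e-14) and rosiglitazone (-0.20 ± 0.05, adjusted p = 0.0023), and higher with retinoic acid (0.24 ± 0.05, adjusted p = 4.0e-05). The bezafibrate call was lost without day 6 (-0.16, adjusted p = 0.061). Its single livers had medians of -0.51, -0.27, -0.47, -0.14 and 0.27 in that order, against 0.00 for vehicle livers, which ran from -0.46 to 0.42. The fenofibrate and Wy-14643 livers were all below the vehicle mean, and 10 of 14 and 9 of 15 lay below the lowest vehicle liver. Slc25a4, the main adenine nucleotide carrier of muscle, was lower with fenofibrate (-0.26 ± 0.05, adjusted p = 3.7e-05) and Wy-14643 (-0.18 ± 0.05, adjusted p = 0.003).

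Slc25a10, the dicarboxylate carrier, was lower with bezafibrate (-0.30 ± 0.05, adjusted p = 6.5e-07), Wy-14643 (-0.24 ± 0.05, adjusted p = 2.0e-05) and rosiglitazone (-0.27 ± 0.05, adjusted p = 2.4e-05), and higher with retinoic acid (0.28 ± 0.05, adjusted p = 2.2e-06). In 15 Wy-14643 livers it ran from -0.47 to 0.00, against -0.26 to 0.23 in vehicle livers. Here probe 10020292046 carried the falls, and probe 10011846574 was called with bezafibrate (-0.08 ± 0.03) and retinoic acid (0.15 ± 0.03) only. Slc25a1, the citrate carrier that supplies fat synthesis, was lower with rosiglitazone (-0.19 ± 0.06, adjusted p = 0.011), but not without rat 1376 (-0.09, adjusted p = 0.214).

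**Figure D4:**
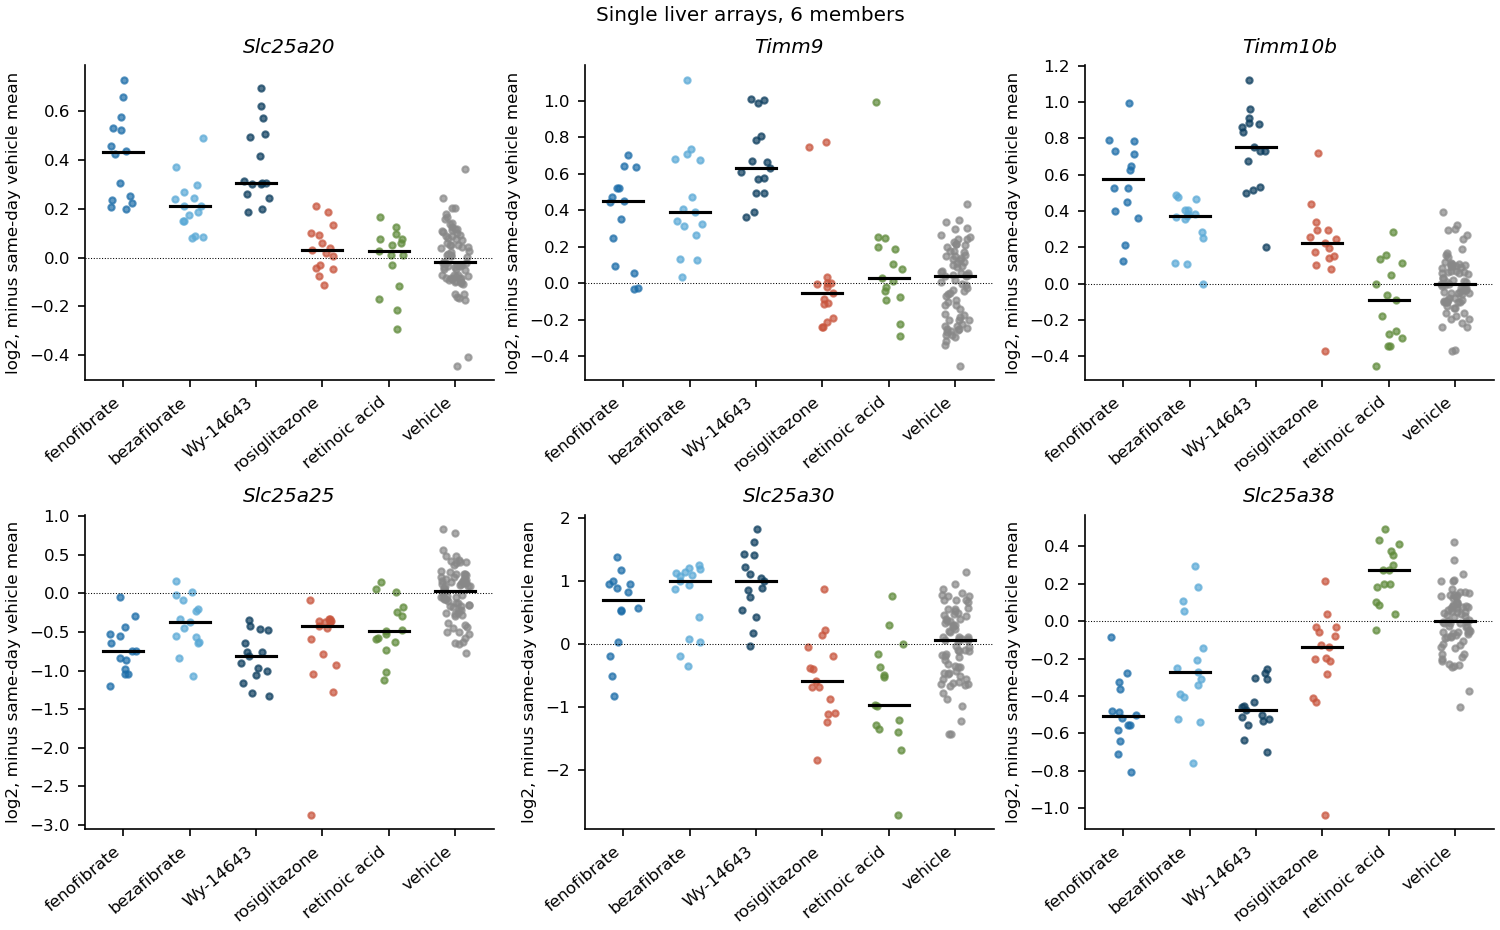
Log2 value of each liver array minus the mean of the same-day vehicle arrays for 4 carriers and 2 import genes; dots are single rats, bars are medians, and the groups run from fenofibrate to vehicle. On average the PPARA agonist livers sit above the vehicle livers for Slc25a20, Timm9 and Timm10b, and below them for Slc25a25 and Slc25a38. Single livers overlap with the vehicle range.

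Among import genes, Timm10b, a small TIM of the TIM22 complex, had the smallest adjusted p with Wy-14643. Its Wy-14643 livers ran from 0.20 to 1.12 (median 0.75), fenofibrate livers from 0.13 to 0.99 (median 0.57) and bezafibrate livers from 0.00 to 0.49 (median 0.37), against -0.37 to 0.39 (median 0.00) in vehicle livers. With Wy-14643, 14 of 15 livers exceeded the highest vehicle liver. The differences were 0.74 ± 0.05 (adjusted p = 3.0e-25) for Wy-14643, 0.56 ± 0.05 (adjusted p = 1.7e-16) for fenofibrate and 0.32 ± 0.05 (adjusted p = 4.0e-07) for bezafibrate. Rosiglitazone gave 0.22 ± 0.05 (adjusted p = 0.0012).

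Timm9, a small TIM chaperone of the intermembrane space, was higher with the same 3 agonists. Its livers had medians of 0.45 with fenofibrate, 0.39 with bezafibrate and 0.63 with Wy-14643, against 0.04 in vehicle livers, which ran from -0.45 to 0.43. In 13 of 15 Wy-14643 livers it exceeded the highest vehicle liver. Its differences were 0.38 ± 0.07 (adjusted p = 2.8e-06), 0.45 ± 0.07 (adjusted p = 4.9e-08) and 0.67 ± 0.07 (adjusted p = 8.4e-16), fenofibrate, bezafibrate and Wy-14643 in order.

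Timm8a1, which pairs with Timm13 as a small TIM, was higher with fenofibrate (0.31 ± 0.05, adjusted p = 1.2e-06), bezafibrate (0.20 ± 0.05, adjusted p = 0.0018) and Wy-14643 (0.49 ± 0.05, adjusted p = 2.3e-14). Tomm40, the outer-membrane channel, was higher with fenofibrate (0.38 ± 0.06, adjusted p = 3.2e-07), Wy-14643 (0.38 ± 0.06, adjusted p = 4.2e-08) and retinoic acid (0.25 ± 0.06, adjusted p = 0.00054). In both Wy-14643 and fenofibrate livers Tomm40 was above the vehicle mean on every array. The receptors Tomm20 and Tomm22 were higher with fenofibrate and Wy-14643, and Tomm20 also with bezafibrate and rosiglitazone. With fenofibrate Tomm20 did not pass without day 3 (0.093, adjusted p = 0.171) or day 6, nor Tomm22 without day 4 (0.056, adjusted p = 0.162). With rosiglitazone Tomm20 did not pass without day 5 (0.13, adjusted p = 0.055) or with array quality weights (0.066, adjusted p = 0.154). Timm17a, a subunit of the TIM23 channel complex, was higher with fenofibrate (0.28 ± 0.06) and Wy-14643 (0.44 ± 0.06), while its relative Timm17b was lower with every compound.

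Timm10, the partner of Timm9, appeared to run the other way. It was lower by 0.52 ± 0.08 with fenofibrate (adjusted p = 1.8e-07) and higher by 0.47 ± 0.08 with retinoic acid (adjusted p = 1.3e-06). Timm10 was also called lower with bezafibrate and Wy-14643, at -0.54 to -0.34 and -0.50 to -0.33 over 12 alternative settings each. Probe 10011855559 gave -1.08 ± 0.16 with fenofibrate, and probe 10020289809 gave values near 0. The direction of Timm10 therefore holds for 1 of its 2 probes with fenofibrate, while both probes were higher with retinoic acid.

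Genes of the pathway around the members were counted from lists. Of 25 respiratory chain subunits on the array, 20 had enough values to be tested in liver, and of these 15 were higher with fenofibrate and 18 with Wy-14643 in liver, none was lower, and none passed with bezafibrate. Of 18 matrix processing enzymes and chaperones tested (19 on the array), 14 were higher with fenofibrate, 16 with Wy-14643 and 5 with bezafibrate, such as Grpel1, a nucleotide exchange factor of the import motor (0.47 ± 0.04 with fenofibrate). The carnitine palmitoyltransferase Cpt2 of the inner membrane was higher by 0.96 ± 0.08 with fenofibrate and 1.04 ± 0.07 with Wy-14643. All 6 PPARA target genes checked were higher in liver with each of the 3 agonists, and 2 of 6 with rosiglitazone. PPARA target genes also helped to set the direction of the ratio, so these values are no check of it. Macrophage and leukocyte markers were lower in 6 of 7 with fenofibrate and with Wy-14643 (medians -0.34 and -0.40), and hepatocyte markers in 4 of the 7 tested of 10 with each (medians -0.15 and -0.16). Their part in the member results was not tested.

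By day, none of 43 members had a called slope by limma in liver with the PPARA agonist mean or rosiglitazone, beside 0.838% and 0.196% of features, and 6 and 2 members had an unadjusted p under 0.05. With array quality weights 4 and 1 were called, and the share of all features under these weights is not given here. Retinoic acid had 5 of 43 called, beside 9.38%. The slopes were -0.09 ± 0.02 per day for Timm13 (adjusted p = 0.0077), -0.12 ± 0.03 for Slc25a10 (adjusted p = 0.017), 0.12 ± 0.04 for Slc25a17 (adjusted p = 0.035), -0.09 ± 0.03 for Tomm7 (adjusted p = 0.038) and -0.05 ± 0.02 for Slc25a22 (adjusted p = 0.042). Of these, Slc25a10, Slc25a17, Tomm7 and Slc25a22 did not pass with arrays scaled to one spread (adjusted p = 0.078, 0.164, 0.052 and 0.107). Slc25a22 also did not pass with array medians subtracted (adjusted p = 0.067). Slc25a10 was 0.58 ± 0.11 on day 2 and 0.05 ± 0.11 on day 6. Slc25a17, a carrier of peroxisomes, was -0.59 ± 0.13 on day 2 and 0.01 ± 0.12 on day 6.

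**Figure D5:**
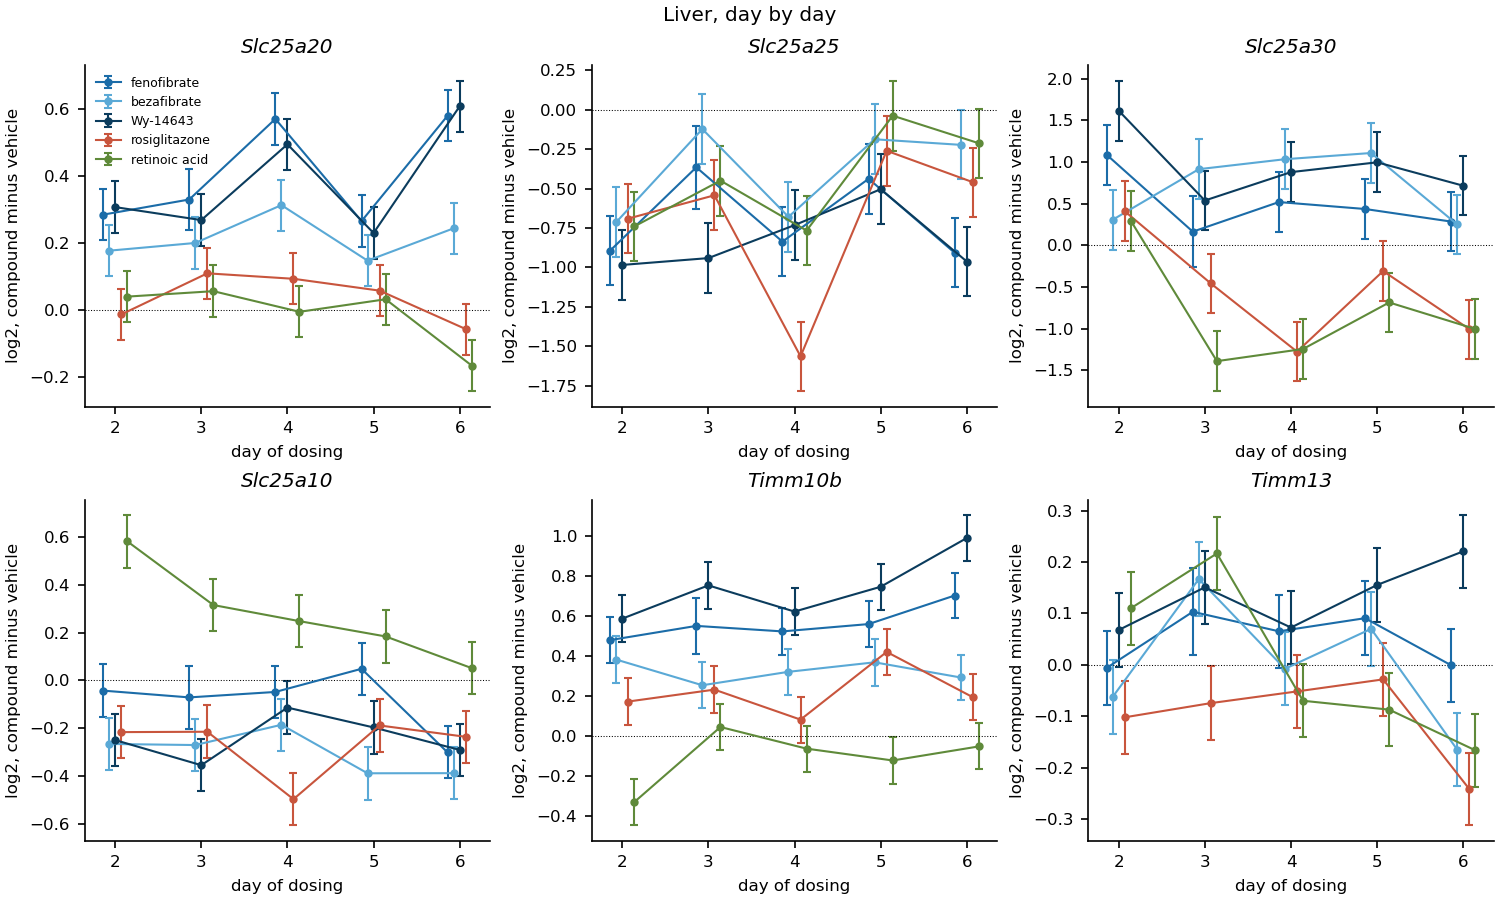
Log2 difference of each compound minus same-day vehicle in liver on days 2 to 6 for 4 carriers and 2 import genes; lines join the days of a compound and bars are SE. The retinoic acid lines of Slc25a10 and Timm13 start high and end low, and the PPARA agonist lines of Slc25a20 and Timm10b stay above 0 on all days.

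In soleus, a slow muscle, 3 of 42 members were called with fenofibrate, beside 3.33% of features. Slc25a20 was higher by 0.18 ± 0.05 (adjusted p = 0.0089), its arrays ran from -0.26 to 0.50 (median 0.19) with fenofibrate, against -0.40 to 0.31 (median 0.02) with vehicle, and the groups overlapped. The probes differed here as in liver: probe 10020293910 gave 0.44 ± 0.08 (adjusted p = 0.00031) and probe 10011871857 gave -0.07 ± 0.04. Timm8a1 was higher by 0.37 ± 0.11 (adjusted p = 0.033), with 16 of 19 fenofibrate arrays above the vehicle median and 4 above the highest vehicle array. The vehicle arrays ran from -3.08 to 0.55, and set directly against the pool Timm8a1 was 0.25 (adjusted p = 0.054). Timm17a was higher by 0.22 ± 0.06 (adjusted p = 0.033), with values on 15 of 19 fenofibrate arrays. It did not pass set directly against the pool (0.12, adjusted p = 0.155) or with array quality weights (0.16, adjusted p = 0.055). Without day 4 or day 6 none of the 42 members passed, and without day 2 or day 5 1 did, with fewer arrays in each fit. Slc25a20 also did not pass without day 3 (0.15, adjusted p = 0.076). The differences over these leave-outs were 0.15 to 0.25 for Slc25a20, 0.34 to 0.40 for Timm8a1 and 0.20 to 0.23 for Timm17a. Without vehicle rat 1022 there were 5 calls, and without vehicle rat 1061 Timm8a1 did not pass (0.35, adjusted p = 0.066).

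With bezafibrate 1 of 42 members was called in soleus, beside 0.904%: Slc25a30 was lower by 0.46 ± 0.12 (adjusted p = 0.040), and with any 1 of the 5 days left out it lay between -0.49 and -0.43 without passing. Without vehicle rat 1022, 3 members passed with bezafibrate and 1 with retinoic acid. No member was called with Wy-14643, beside 0.191% of features, or with retinoic acid, beside 2.85%, by limma, while 3 and 5 had an unadjusted p under 0.05. Rosiglitazone gave 3 of 42, beside 2.63%. Slc25a1 was higher by 0.14 ± 0.03 (adjusted p = 0.0033), and 17 of 20 rosiglitazone arrays lay above the vehicle mean. Slc25a30 was lower by 0.49 ± 0.12 (adjusted p = 0.0093), and Slc25a29, a carrier of basic amino acids, by 0.20 ± 0.06 (adjusted p = 0.022). Slc25a29 did not pass without vehicle rat 1061 (-0.18, adjusted p = 0.066), and without day 4, 5 or 6 1 of the 3 calls was made. With a day left out the differences were 0.10 to 0.18 for Slc25a1, -0.53 to -0.45 for Slc25a30 and -0.23 to -0.19 for Slc25a29. Fast fibre markers had a median of -0.76 with fenofibrate and -0.79 with rosiglitazone, none called, and their part was not tested. Slc25a3 and Slc25a4 were not tested in soleus or quad, where few arrays had a value for them, nor was Slc25a5 in liver.

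Slopes over days called no member in soleus with the PPARA agonist mean, rosiglitazone or retinoic acid (0% of features each, by limma), and 0, 1 and 2 had an unadjusted p under 0.05.

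In quad, 1 of 42 members was called with fenofibrate, beside 0.771% of features, and 1 with bezafibrate, beside 2.95%. Both were Slc25a30, lower by 0.40 ± 0.09 (adjusted p = 0.014) and 0.31 ± 0.08 (adjusted p = 0.017). Fenofibrate quads ran from -1.20 to 0.16 and bezafibrate quads from -0.92 to 0.49, against -0.74 to 0.71 in vehicle quads, so the groups overlapped. The bezafibrate call was lost without bezafibrate rat 1256 (-0.29, adjusted p = 0.053) and without day 2, 3 or 6, and the fenofibrate call without day 2, 5 or 6, at -0.35 to -0.28 and -0.47 to -0.33 over all 5 leave-outs. With rat 1157 kept in, fenofibrate had 4 calls. Wy-14643 called none by limma, beside 0.038%, while 4 had an unadjusted p under 0.05.

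Rosiglitazone gave the most calls in quad, 7 of 42 beside 10.5% of features. Import genes Timm23 (-0.15 ± 0.04, adjusted p = 0.0074), Tomm20 (-0.16 ± 0.05, adjusted p = 0.012) and Timm17a (-0.18 ± 0.05, adjusted p = 0.015) were lower, with Timm21 and Timm10 (-0.09 ± 0.03). Tomm20 arrays ran from -0.52 to 0.03 with rosiglitazone, against -0.50 to 0.70 with vehicle, and 1 of 16 lay above the vehicle mean. Slc25a20 was lower by 0.15 ± 0.04 (adjusted p = 0.0023) and Slc25a38 higher by 0.16 ± 0.05 (adjusted p = 0.029). Without day 3 or day 4 there were 3 calls and without day 5 there was 1, with Tomm20 at -0.21 to -0.14 and Timm23 at -0.17 to -0.11 over the 5 leave-outs. With rat 1157 kept in there were 3, and Timm10 did not pass without vehicle rat 1042 or 1068 (adjusted p = 0.051 each). Of 16 respiratory chain subunits tested, 7 were lower and none higher. Slow fibre markers had a median of -0.31, none called, and adipocyte markers were higher in 2 of 6 (Fabp4, 1.36 ± 0.11). Their part was not tested.

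Retinoic acid gave 2 of 42 in quad, beside 3.25%: Slc25a30 (-0.32 ± 0.09, adjusted p = 0.016) and Slc25a25 (-0.43 ± 0.12, adjusted p = 0.018). Of the 2 probes of Slc25a25, probe 10011859113 gave -0.75 ± 0.18 and probe 10011849895 gave -0.10 ± 0.06. Neither call was made without day 4, and 1 was made without day 2, 3 or 5. Without day 3 Slc25a30 was -0.20 (adjusted p = 0.436). Slopes over days in quad called no member with the PPARA agonist mean or rosiglitazone (0% of features each) or with retinoic acid (0.0217%), and 9, 2 and 6 had an unadjusted p under 0.05.

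The tissues were compared directly. Between soleus and quad no member differed by limma: with the PPARA agonist mean 0.158% of features did, with rosiglitazone 0.0491% and with retinoic acid 0.0927%, and 7, 5 and 2 members had an unadjusted p under 0.05. The absence of calls does not show that both muscles responded alike. Between liver and soleus, the response of 16 of 41 members differed with the PPARA agonist mean, beside 24.3% of features. For 9 of the 10 import genes among them the liver response minus the soleus response was above 0. The differences of liver minus soleus were 0.47 ± 0.07 for Timm10b (adjusted p = 6.1e-09), 0.95 ± 0.15 for Slc25a30 (adjusted p = 6.2e-08), 0.25 ± 0.04 for Slc25a20 (adjusted p = 7.1e-08), 0.42 ± 0.07 for Timm9 (adjusted p = 8.0e-07), -0.61 ± 0.09 for Slc25a25 (adjusted p = 1.5e-08) and -0.35 ± 0.06 for Slc25a38 (adjusted p = 3.7e-06). With rosiglitazone 3 of 41 differed, beside 5.65%, and with retinoic acid 9 of 41, beside 12.7%. These fits had no block for the rat. In the paired fit with the rat as replicate block, the PPARA agonist mean called 14, rosiglitazone 2 and retinoic acid 2. The paired fit held only the 106 rats with both tissues, with 33 vehicle rats. The retinoic acid calls lost included Slc25a10 (0.36, adjusted p = 0.064), Slc25a29 (0.27, adjusted p = 0.057), Slc25a28 (0.15, adjusted p = 0.091), Slc25a38 (0.29, adjusted p = 0.090), Tomm40 (0.32, adjusted p = 0.105) and Timm17b (-0.15, adjusted p = 0.232), and without day 3, 5 or 6 retinoic acid had 5 calls. Timm17a with the PPARA agonist mean was 0.18 without the block and 0.21 with it (adjusted p = 0.121).

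In EDL every compound was measured only against the vehicle pool. Against it 19 of 44 members were called with fenofibrate, 21 with bezafibrate, 23 with Wy-14643, 19 with rosiglitazone and 24 with retinoic acid, beside 34.6%, 33.9%, 47.1%, 37.2% and 40.4% of features. Slc25a29 was lower with each, by 0.25 to 0.33, and all 9 fenofibrate arrays, all 9 bezafibrate arrays and all 12 Wy-14643 arrays were below 0. Compound and pool cannot be told apart: set against the mean of the other 4 compounds at days 4 to 6, no member was called for any compound, while rosiglitazone called 122 features, retinoic acid 16, Wy-14643 3, and fenofibrate and bezafibrate 0 each. The pair of rosiglitazone doses on day 4 (100 against 10 mkd, 4 and 3 arrays) called no member by limma, beside 0.0108% of features, and 2 had an unadjusted p under 0.05.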

How the data were processed

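Per the labels, Cy5 held the RNA of a single rat and Cy3 the pooled vehicle RNA of that tissue and day. The authors deposited ratios for 23653 probes, read here as log10. Their normalization, and the scale and direction of the ratio, are not given in the sources used here. Scale and direction were inferred, from the limit of ±2, from the channels and from PPARA target genes. The rat was put over the pool, and a factor of 3.32 converted the values to log2. With the opposite direction every sign would turn. High PPARA targets in treated livers were part of that inference, so they are no separate check of the direction. Same-day pairs of arrays correlated below -0.3 in 39 of 1700 soleus pairs (27 with an array in doubt) and 11 of 2200 quad pairs, down to -0.619. Probes were named from the platform table, 10210 genes in 18603 features, and features with values on 80% of arrays were tested.

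limma 3.58.1 in R 4.3.3 fitted 1 mean per compound and day in each tissue, with the days weighted equally, Benjamini-Hochberg adjustment and a threshold of 0.05. The number of arrays limits the precision. Members and lists were chosen with earlier results of these data known. Values in full go to at most 5 carriers and 3 import genes per comparison with the smallest adjusted p, and to a set fixed by role. The procedure was tested on simulated data. Same-rat arrays correlated at a median of 0.253 (soleus and quad, 110 rats) and 0.135 (liver and soleus, 106 rats), after group means were removed. The main fits between tissues had no block for the rat, which was used as a block in an alternative fit only. Quad fenofibrate rat 1157 was left out. Software was Python 3.11.15, numpy 2.4.6, pandas 2.3.3, matplotlib 3.10.9 and statmod 1.5.0.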

Additional observations from a re-analysis of the deposited data

Results flagged for a closer look

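Some members responded differently in liver than in soleus, by a test of the difference itself. As liver minus soleus, these were, with the PPARA agonist mean, Slc25a25 (-0.61), Slc25a30 (0.95), Slc25a20 (0.25), Slc25a38 (-0.35), Slc25a51 (0.24), Timm10 (-0.47), Timm10b (0.47), Timm9 (0.42), Tomm22 (0.11), Tomm40 (0.30) and Timm17a (0.18). With rosiglitazone they were Slc25a25 (-0.68), Slc25a1 (-0.33), Tomm6 (0.20), and with retinoic acid Slc25a17 (-0.40), Slc25a10 (0.36), Slc25a29 (0.29), Slc25a28 (0.17), Slc25a38 (0.26), Timm10 (0.56), Tomm40 (0.31), Timm17b (-0.16). With the rat as replicate block, Slc25a10, Slc25a29, Slc25a28, Slc25a38, Tomm40 and Timm17b with retinoic acid, Tomm6 with rosiglitazone and Timm17a with the PPARA agonist mean did not pass, with adjusted p = 0.064, 0.057, 0.091, 0.090, 0.105, 0.232, 0.159 and 0.121 in that order. Without the block, some calls were lost with a day left out: Slc25a51 without day 6 (0.19, adjusted p = 0.068), Timm17a without day 2 (0.15, adjusted p = 0.144), Tomm22 without day 5 (0.084, adjusted p = 0.138) and Tomm6 without day 5 (0.13, adjusted p = 0.287). With retinoic acid, Slc25a29 (0.14, adjusted p = 0.176), Tomm40 (0.20, adjusted p = 0.256) and Slc25a28 (0.13, adjusted p = 0.204) were lost without day 3, and Slc25a38 (0.23, adjusted p = 0.149) and Timm17b (-0.15, adjusted p = 0.125) without day 2. Several of these calls were also lost without other days. Timm17a did not pass without day 3, Tomm22 without day 3 or 4, and Tomm6 without day 4. With retinoic acid, Slc25a38 and Timm17b did not pass without day 4, 5 or 6. Nor did Slc25a28 without day 2 or 6, or Tomm40 without day 5.

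In EDL, 120 combinations of a named member and a group of 4 to 10 arrays were examined for an array far from the others, and 11 stood apart (chance alone flags about 1 in 20). The log2 ratios to the pool were Slc25a38 in rosiglitazone 10 mkd rat 1350 (lowest, -0.31), Slc25a28 in rosiglitazone 100 mkd rat 1376 (highest, -0.13), Timm21 in rosiglitazone 100 mkd rat 1374 (highest, 0.11), Slc25a4 in rosiglitazone 100 mkd rat 1376 (lowest, -0.53), Slc25a5 in rosiglitazone 10 mkd rat 1352 (lowest, -0.31), Slc25a10 in bezafibrate 25 mkd rat 1234 (highest, 0.28), Tomm20 in bezafibrate 25 mkd rat 1242 (highest, 0.55), Timm8a1 in rosiglitazone 100 mkd rat 1376 (highest, 0.31), Timm10 in fenofibrate 50 mkd rat 1124 (lowest, -0.31), Slc25a14 in bezafibrate 25 mkd rat 1242 (highest, 1.39), Slc25a51 in bezafibrate 25 mkd rat 1234 (lowest, -0.15). Rat 1376, whose liver array is in doubt, gave 3 of them.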

How the results depend on the processing

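Counts of called members moved by more than 1.5 times under these settings, each given beside its reported count, and the cause was not tested. The share of all features called under each setting is not given here. A changed count therefore cannot be read as particular to the members. With array quality weights there were 2 for soleus bezafibrate (reported 1), 24 for liver retinoic acid (reported 13), 4 for liver slope of PPARA mean (reported 0), 1 for liver slope of rosiglitazone (reported 0), 13 for liver slope of retinoic acid (reported 5). With arrays scaled to one spread there were 5 for soleus fenofibrate (reported 3), 2 for soleus bezafibrate (reported 1), 1 for soleus retinoic acid (reported 0), 4 for quad rosiglitazone (reported 7), 2 for liver slope of retinoic acid (reported 5). With each probe tested singly there were 2 for quad fenofibrate (reported 1), 2 for quad bezafibrate (reported 1). Against the mean of the other 4 compounds on days 4 to 6 there were 0 for EDL fenofibrate (reported 19), 0 for EDL bezafibrate (reported 21), 0 for EDL Wy-14643 (reported 23), 0 for EDL rosiglitazone (reported 19), 0 for EDL retinoic acid (reported 24). With quad fenofibrate rat 1157 kept in there were 4 for quad fenofibrate (reported 1), 3 for quad rosiglitazone (reported 7). With treated rats set directly against the pool there were 2 for soleus bezafibrate (reported 1), 1 for soleus Wy-14643 (reported 0), 4 for quad fenofibrate (reported 1), 5 for quad bezafibrate (reported 1), 12 for quad rosiglitazone (reported 7). With the replicate block there were 2 for liver minus soleus retinoic acid (reported 9). Without the arrays in doubt there were 5 for soleus fenofibrate (reported 3), 2 for soleus bezafibrate (reported 1), 0 for quad bezafibrate (reported 1), 5 for liver minus soleus rosiglitazone (reported 3). Without day 2 there were 1 for soleus fenofibrate (reported 3), 0 for soleus bezafibrate (reported 1), 0 for quad fenofibrate (reported 1), 0 for quad bezafibrate (reported 1), 1 for quad retinoic acid (reported 2). Without day 3 there were 0 for soleus bezafibrate (reported 1), 0 for quad bezafibrate (reported 1), 3 for quad rosiglitazone (reported 7), 1 for quad retinoic acid (reported 2), 5 for liver minus soleus rosiglitazone (reported 3), 5 for liver minus soleus retinoic acid (reported 9). Without day 4 there were 0 for soleus fenofibrate (reported 3), 0 for soleus bezafibrate (reported 1), 1 for soleus rosiglitazone (reported 3), 3 for quad rosiglitazone (reported 7), 0 for quad retinoic acid (reported 2). Without day 5 there were 1 for soleus fenofibrate (reported 3), 0 for soleus bezafibrate (reported 1), 1 for soleus rosiglitazone (reported 3), 0 for quad fenofibrate (reported 1), 1 for quad rosiglitazone (reported 7), 1 for quad retinoic acid (reported 2), 9 for liver rosiglitazone (reported 14), 5 for liver minus soleus retinoic acid (reported 9), 13 for EDL retinoic acid (reported 24). Without day 6 there were 0 for soleus fenofibrate (reported 3), 0 for soleus bezafibrate (reported 1), 1 for soleus rosiglitazone (reported 3), 0 for quad fenofibrate (reported 1), 0 for quad bezafibrate (reported 1), 5 for liver minus soleus retinoic acid (reported 9), 10 for EDL bezafibrate (reported 21), 10 for EDL rosiglitazone (reported 19). Leaving out single arrays in doubt gave 2 to 5 for soleus fenofibrate, 1 to 3 for soleus bezafibrate, 0 to 1 for soleus retinoic acid, 0 to 1 for quad bezafibrate. In EDL, the difference from the other 4 compounds had the opposite sign to the ratio to the pool for Wy-14643: Timm23 (0.0034), Slc25a11 (0.011), Slc25a30 (0.00044), Timm9 (-0.014); bezafibrate: Slc25a29 (0.0014), Tomm7 (0.025), Slc25a11 (0.12); fenofibrate: Slc25a29 (0.030), Slc25a28 (0.033), Timm23 (0.012); retinoic acid: Slc25a29 (0.019), Tomm7 (0.017); rosiglitazone: Slc25a29 (0.024), Slc25a28 (0.10), Timm23 (0.013), Slc25a11 (0.16), Timm9 (-0.018). Of 6942 single-member values under an alternative, 6592 were labelled the same, 221 lost the call, 105 gained one, 7 moved and 17 reversed. Direction was compared only for members called in the reported fit. A member uncalled in both fits was labelled the same when it shifted by less than its SD in the fit, and moved otherwise. In the paired fit, the replicate block gave 2 retinoic acid calls of liver minus soleus, against 9 without it; Timm17a (0.21, adjusted p = 0.121) and Tomm6 with rosiglitazone (0.19, adjusted p = 0.159) lost their calls. The single-probe setting and the EDL setting against the other compounds were chosen after seeing the data. Members with 1 probe have no check between probes, and ratios at the limit are bounds.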
